A study of Mus musculus with 6 samples.

Results

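The transcripts of 10 AP-1 and related early-response transcription factors were followed in NMuMG cells given TGF-β with and without 2APB. They were the Fos family members Fos, Fosb, Fosl1 and Fosl2, the Jun family members Jun, Junb and Jund, the related bZIP factors Atf3 and Maff, and the zinc finger factor Egr1. The genes were chosen by name with earlier results of these data known, so the shares of them called below are no test of the set. Their rows were read from the deposited count table, which held all 10 of them among 18512 entries. All 10 reached the minimum mean of 20 normalized counts, as did 13353 entries in all, and only these were tested.

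AP-1 is a dimer of basic leucine zipper proteins. Fos proteins bind DNA mainly with a Jun partner, and Jun proteins can also pair with each other. The make-up of the dimer sets how strongly its target genes are read. Genes such as Fos and Egr1 belong to the immediate-early class, which growth factors, serum and stress switch on within minutes through serum response factor and CREB, without new protein synthesis, and whose transcripts are short-lived. In the TGF-β response, AP-1 is known as a partner of SMAD proteins at shared target promoters.

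NMuMG is an epithelial cell line from mouse mammary gland. The cells were serum-starved and then received DMSO as vehicle, TGF-β at 5 ng/ml, or the same dose of TGF-β together with 50 uM 2APB (2-aminoethoxydiphenyl borate, a compound that acts on store-operated calcium entry), and 2 biological replicates of each of the 3 groups gave 6 RNA-seq libraries. No library had 2APB without TGF-β, so 2APB was compared on its own only within TGF-β-treated cells, and TGF-β+2APB against DMSO takes both agents together. The study's text gives a day of treatment in one place and 2APB ahead of TGF-β in another, and whether 2APB came first was not settled here.

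The libraries held 71840570 to 79473182 counts and every deposited value was even. Values below are normalized counts, that is counts scaled by TMM factors to the mean library size, and log2 fold changes come with a standard error (SE) from edgeR's quasi-likelihood model of all 6 libraries. A gene was called where its Benjamini-Hochberg adjusted p over all 13353 entries (FDR) was at most 0.05. The spread between replicates was widest with TGF-β+2APB, where the log2 difference of the pair had an SD of 0.73 over all tested genes, against 0.53 with TGF-β and 0.30 in DMSO. In that group the summed counts of 3 leukocyte markers, Ptprc, Cd68 and Csf1r, were 326 in replicate 1 and 2362 in replicate 2, against 236 to 640 elsewhere. As to the label, the epithelial keratins Krt8 and Krt18 were abundant in every library and Cdh1 was present, while Epcam was low at 52 to 158 counts. The hepatocyte markers Alb and Apoa1 together held 36710 and 43134 counts in the DMSO libraries, 46 and 118 under TGF-β alone and 22 and 40 under the combination, where Apoa1 was at 0 in 1 library. The endothelial markers Pecam1, Cdh5 and Kdr together held 10 to 50 counts in each library, with Kdr at 0 in 5 of them, and the fibroblast markers Pdgfra, Col1a1 and Dcn held 134 and 146 in DMSO and 1752 to 2462 in the treated libraries, with Dcn at 0 in 3 of the 6. The part of these shifts in the results below was not tested, and in bulk RNA fewer cells of a type and less RNA per cell cannot be told apart.

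With TGF-β the early-response factors split. Fos, Egr1 and Atf3 fell to a small part of their DMSO level, Jun and Jund fell slightly, and Fosb and Junb rose. The addition of 2APB to TGF-β raised Fosb, Fosl2 and Jun and returned none of the strongly lowered genes to its DMSO level. By edgeR, 7 of the 10 members were called with TGF-β against DMSO, with 2 up and 5 down, in a comparison that called 41.5% of all tested genes, 21.8% higher and 19.7% lower. When TGF-β+2APB was set against TGF-β, 3 members were called, all higher, where 17.5% of all tested genes were called, 6.58% higher and 10.9% lower. Against DMSO, the combination of TGF-β and 2APB gave 6 calls, 3 up and 3 down, where the background was 52.8%, with 25.6% higher and 27.2% lower, so that the members' share of 60% was near it. The median size of the log2 fold change was 0.83 for the members and 0.35 for all tested genes with TGF-β, 0.62 and 0.23 for the step on which 2APB was added, and 1.08 and 0.44 for the combination against DMSO. With their signs, the members' medians were -0.30, 0.32 and -0.16 in the same order, against -0.01, -0.00367 and -0.00326 for all tested genes. The comparisons share libraries, since DMSO, TGF-β and TGF-β+2APB each enter a pair of them, so they are not independent of each other.

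**Figure D1:**
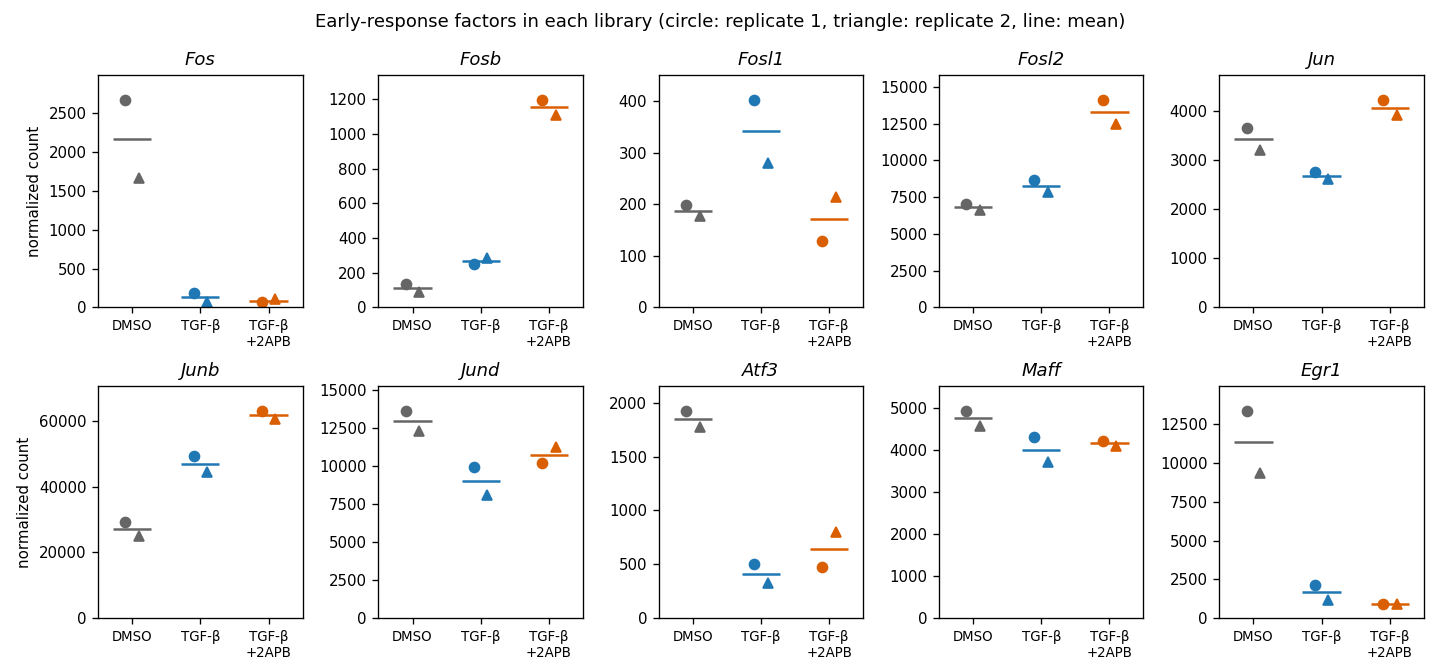
Normalized counts (vertical axis, linear from 0, own scale in each panel) of the 10 genes in the 3 groups, with replicate 1 as a circle, replicate 2 as a triangle and the mean as a line. Fos, Atf3 and Egr1 are highest in DMSO, Fosb, Fosl2 and Junb are highest with TGF-β+2APB, and Jun is lowest with TGF-β.

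The promoters of the members are shown because Fos and Fosb, which moved in opposite directions, hold the same short element at nearly the same place. RefSeq promoter sequences of build GRCm38.p6, from 250 bases before to 50 bases after the annotated start, were used for 8 members. For Fosl1 and Egr1 none were used. These sequences were searched on both strands for the CArG box bound by serum response factor, for the cAMP response element TGACGTCA, for the AP-1 site TGANTCA and, chosen after the sequences were read, for TGACG, the core of the cAMP response element, which every TGACGTCA holds on both strands. The core was found in the promoters of Fos, Fosb, Junb, Atf3 and Maff, not in the windows of Fosl2, Jun and Jund. Only exact matches were counted, so a related site can be missed. The last 120 bases before the start of Jun, and before another start of Maff, hold TGACATCA, which differs from TGACGTCA at a single base. It was also found in the promoters of 23% of 27025 genes searched in the same way, or 20.8% of 32851 promoters. That wider search left out a single chromosome, which holds none of the 8 members. The RefSeq start used for Jund lies 1210 bases before the GENCODE start given for the gene below. On the same count those of Fosl2 and Atf3 lie at -671 and -34706 bases, that is after the GENCODE start. These windows are therefore of the RefSeq start only. The last 120 bases before the start are printed 5′ to 3′ for these members, with the core, or the whole cAMP response element where there is one, in capitals on either strand. For Maff, which has 3 annotated starts, the one whose window holds the element is shown.
Fos (chr12:85473770-85473889, plus strand): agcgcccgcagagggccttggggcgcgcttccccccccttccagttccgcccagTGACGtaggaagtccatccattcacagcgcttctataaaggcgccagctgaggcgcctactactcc
Fosb (chr7:19310046-19310165, minus strand): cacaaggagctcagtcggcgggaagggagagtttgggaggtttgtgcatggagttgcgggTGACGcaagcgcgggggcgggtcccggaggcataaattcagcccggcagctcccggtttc
Junb (chr8:84978749-84978868, minus strand): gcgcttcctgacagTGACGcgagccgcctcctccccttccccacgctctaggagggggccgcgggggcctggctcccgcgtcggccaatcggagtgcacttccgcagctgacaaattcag
Atf3 (chr1:191183334-191183453, minus strand): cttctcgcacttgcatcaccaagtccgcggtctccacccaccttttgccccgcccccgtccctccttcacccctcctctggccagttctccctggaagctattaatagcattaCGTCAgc
Maff (chr15:79347400-79347519, plus strand): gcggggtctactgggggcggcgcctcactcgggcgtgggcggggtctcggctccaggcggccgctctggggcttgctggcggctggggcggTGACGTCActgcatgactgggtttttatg
Counted from the start, the core lies at bases -66 to -62 in Fos, which has another at -129 to -125 outside the printed stretch, and at -60 to -56 in Fosb. In Junb it lies at -106 to -102 and in Atf3, on the opposite strand, at -7 to -3. The whole palindrome TGACGTCA was found in Maff alone among the 8 members, at -29 to -22, and in 1.79% of all promoters. A further core lies at -122 to -118 before another start of Maff, on the opposite strand. The CArG box, present in 1.63% of all promoters, and TGANTCA, present in 7.81%, were not found in the windows of the 8 members. The serum response element for which Fos is known lies further upstream than these windows reach.

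Fos, the founding member of its family, was the most strongly lowered of the 10 genes. It lies on chromosome 12 from 85473890 to 85477273 (GRCm38, plus strand). Normalized counts of Fos were 2673 and 1667 in the DMSO replicates, 183 and 74.7 under TGF-β alone, and 67.3 and 105 under the combination. Both treated groups lay far below DMSO and overlapped each other. Under TGF-β the log2 fold change was -4.07 (SE 0.50, 16.8-fold lower, edgeR FDR 0.00196), which placed Fos 162nd from the bottom of the 13353 tested genes, and under the combination it was -4.66 against DMSO (SE 0.52, 25.2-fold lower, edgeR FDR 0.00088). Between the treatments it was -0.59 (95% interval -1.81 to 0.63, edgeR FDR 0.453), and without replicate 1 of TGF-β it was 0.20, so no direction can be given for that step.

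Fosb, which also encodes the truncated and long-lived ΔFosB from a spliced form that gene counts do not separate, moved the other way from a low start. The gene spans chromosome 7 from 19302696 to 19310051 (minus strand). DMSO cells had 136 and 90.9 normalized counts of Fosb, TGF-β-treated cells 253 and 284, and those that also had 2APB 1198 and 1109, so that the 3 groups did not overlap and each step was upward. TGF-β raised it by a log2 of 1.24 (SE 0.21, edgeR FDR 0.00599). The addition of 2APB raised it by a further 2.10 (SE 0.21, 4.29-fold, edgeR FDR 0.00482), the largest change of a member in that comparison and rank 297 from the top of all tested genes. Against DMSO, TGF-β+2APB stood 10.2-fold higher (log2 3.35, SE 0.22, edgeR FDR 0.000145). These Fosb calls were kept in all 16 alternative settings at the same threshold, among them the omission of each library in turn.

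Fosl2, which encodes FRA2, was the most abundant Fos family member per kilobase of exon after treatment. The gene lies on chromosome 5 from 32135801 to 32157842 (plus strand). Fosl2 stood at 7001 and 6605 normalized counts in DMSO, at 8672 and 7871 after TGF-β, and at 14126 and 12463 after TGF-β with 2APB. The replicates with 2APB lay above all others. The change with TGF-β, 0.28 on the log2 scale (95% interval 0.04 to 0.52, edgeR FDR 0.0642), was not called, while DESeq2 called it with an FDR of 0.0403 (range over the alternatives 0.0263 to 0.306, the lowest without replicate 2 of TGF-β), and the replicate block called it too (FDR 0.0496). The addition of 2APB raised Fosl2 by 0.68 (SE 0.10, 1.61-fold, edgeR FDR 0.0108), a call that was lost without replicate 1 of TGF-β+2APB (log2 fold change 0.56, edgeR FDR 0.0745). Set against DMSO, the combination gave 0.97 (SE 0.10, edgeR FDR 0.000625).

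Fosl1, which encodes FRA1, a factor tied to invasive growth, was scarce and was not called in any of the comparisons. The gene lies on chromosome 19 from 5447547 to 5455946 (plus strand), and 1163 of its 2033 exonic bases lie within Ccdc85b on the other strand. The strand setting of the counting is not given in the sources used here, so the reads of the overlap cannot be assigned with certainty. The normalized count of Fosl1 was 199 and 178 in DMSO replicates 1 and 2, 403 and 280.1 under TGF-β alone, and 129 and 215 when 2APB was added. The TGF-β replicates were the highest, and the DMSO and TGF-β+2APB groups overlapped. The log2 fold change was 0.86 with TGF-β (95% interval 0.08 to 1.64, edgeR FDR 0.076), -0.99 on addition of 2APB (95% interval -1.77 to -0.21, edgeR FDR 0.0876) and -0.13 for TGF-β+2APB against DMSO (95% interval -0.91 to 0.65, edgeR FDR 0.751). DESeq2 called the change with TGF-β (FDR 0.0428, range over the alternatives 0.0278 to 0.278) and that on addition of 2APB (FDR 0.0329, range 0.0319 to 0.252). The omission of 1 library also brought these changes past the threshold by edgeR. Without replicate 2 of TGF-β they were 1.10 (FDR 0.0441) and -1.23 (FDR 0.0428). Without replicate 1 or replicate 2 of TGF-β+2APB the first was 0.89 (FDR 0.0367 and 0.0344), and without the latter the second was -1.41 (FDR 0.05). Ccdc85b had a log2 fold change of 0.21 with TGF-β (edgeR FDR 0.238) and -0.45 on addition of 2APB (edgeR FDR 0.064), the same signs as Fosl1.

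**Figure D2:**
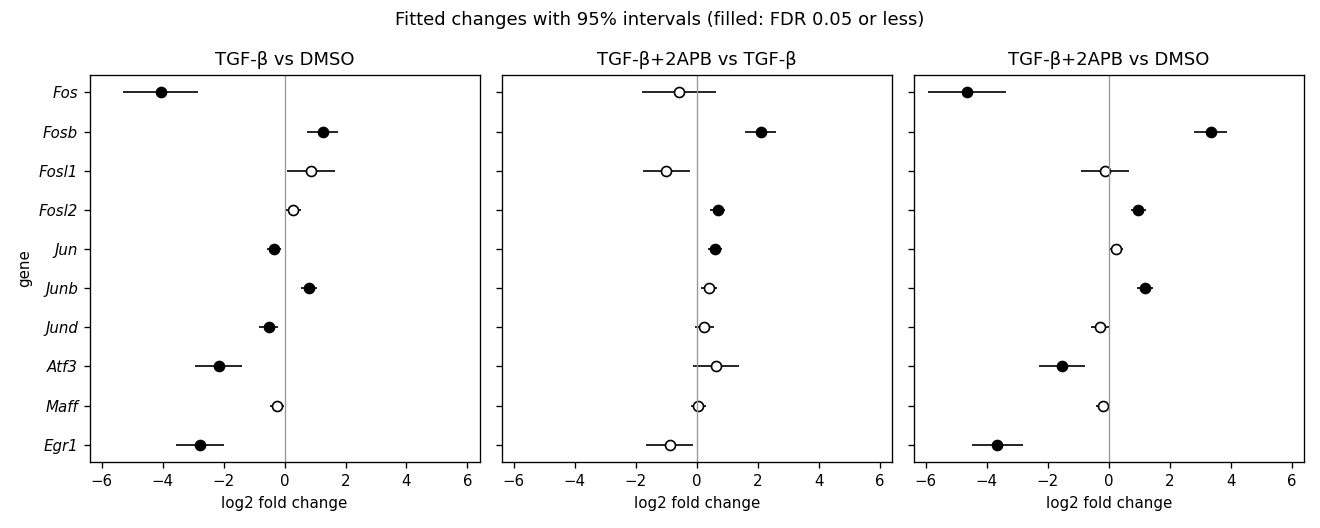
Fitted log2 fold changes (horizontal axis) of the 10 genes in the 3 comparisons with their 95% intervals, filled where the FDR is 0.05 or less. The falls of Fos, Atf3 and Egr1 and the rises of Fosb and Junb stand in both comparisons with DMSO, and Fosb, Fosl2 and Jun are filled in the direct comparison of the treatments.

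Junb, which in several settings weakens the activity of Jun, was the most abundant member in every library. Junb maps to chromosome 8 from 84974484 to 84978718 (minus strand), and 173 of its 2301 exonic bases lie within Prdx2 on the other strand. The DMSO replicates held 29398 and 24941 normalized counts of Junb, the TGF-β replicates 49436 and 44560.2, and the TGF-β+2APB replicates 63154 and 60632. The 3 groups did not overlap and each was above the one before. TGF-β raised it 1.73-fold (log2 0.79, SE 0.10, edgeR FDR 0.00251), and the combination stood above DMSO by a log2 of 1.19 (SE 0.10, 2.28-fold, edgeR FDR 0.00038). The step between the treatments, 0.40 (95% interval 0.14 to 0.65, edgeR FDR 0.0517), just missed the threshold and was called in 9 of 16 alternatives, with an FDR of 0.00408 to 0.286 over them. These were both DESeq2 settings, RLE factors, library size scaling, the count minimum in every library, both replicate blocks (FDR 0.0475 with the replicate number), halved counts, and the fit without replicate 1 of TGF-β (log2 fold change 0.48, edgeR FDR 0.0287). Prdx2, the peroxiredoxin gene that overlaps it, had a log2 fold change of 0.70 with TGF-β (edgeR FDR 0.00301) and of 0.11 on addition of 2APB (edgeR FDR 0.468).

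Jun, the partner with the strongest transactivation among the Jun proteins, was lowest with TGF-β and highest with TGF-β+2APB. Its locus is on chromosome 4 from 95049034 to 95052222 (minus strand), where 689 of its 3189 exonic bases lie within the antisense gene Junos. Jun had 3644 and 3194 normalized counts in DMSO cells, 2749 and 2604 after TGF-β, and 4223 and 3907 after TGF-β with 2APB. The groups did not overlap. The fall with TGF-β was small, -0.35 on the log2 scale (SE 0.09, edgeR FDR 0.027), and was kept in 11 of 16 alternatives. It was lost in the fit of only the 4 libraries compared, without replicate 1 or replicate 2 of DMSO (log2 fold change -0.26 and -0.45, edgeR FDR 0.195 and 0.0547), and without replicate 1 or replicate 2 of TGF-β+2APB (-0.33 in each, edgeR FDR 0.074 and 0.0734). The rise on addition of 2APB was 0.60 (SE 0.09, 1.52-fold, edgeR FDR 0.0126) and was lost without replicate 1 of TGF-β+2APB (0.52, edgeR FDR 0.0925). Between the combination and DMSO the change was 0.25 (95% interval 0.02 to 0.48, edgeR FDR 0.0653). That change was called without replicate 1 of TGF-β (0.26, edgeR FDR 0.0366) and without replicate 2 of TGF-β (0.25, edgeR FDR 0.039), and also with DESeq2's fold change prior, with the replicate block and in the fit of only the 4 libraries compared.

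Jund, the Jun protein most often described as restraining growth, fell modestly with TGF-β. Its single exon lies on chromosome 8 from 70698949 to 70700616 (plus strand), where 919 of its 1668 exonic bases are within the antisense gene Gm11175. For Jund, DMSO replicates 1 and 2 held 13662 and 12303 normalized counts, TGF-β replicates 9973 and 8116, and TGF-β+2APB replicates 10196 and 11288. DMSO lay above both treated groups, which did not overlap each other. The log2 fold change with TGF-β was -0.52 (SE 0.13, edgeR FDR 0.021), a call lost without replicate 1 of DMSO (-0.44, edgeR FDR 0.142) or without replicate 2 of DMSO (-0.60, edgeR FDR 0.0698). On addition of 2APB it was 0.25 (95% interval -0.06 to 0.56, edgeR FDR 0.23), and 0.41 without replicate 1 of TGF-β (edgeR FDR 0.0292). Against DMSO, TGF-β+2APB gave -0.27 (95% interval -0.58 to 0.04, edgeR FDR 0.119), which was called without replicate 1 or replicate 2 of TGF-β (-0.27 in each, edgeR FDR 0.0226 and 0.0285).

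Compared per kilobase of exon, so that genes of unlike length can be ranked, Junb and Jund led in every group. In DMSO the order was Junb, Jund, Egr1, Maff, Jun, Fos, Atf3, Fosl2, Fosl1 and Fosb, from a mean of 11808 normalized counts per kilobase for Junb to 18.1 for Fosb. The DMSO replicates of Fos, at 1137 and 709 per kilobase, spanned those of Atf3 and overlapped those of Jun and Fosl2, so the place of Fos among them is not resolved, while Jun, Atf3 and Fosl2 did not overlap each other. Under TGF-β alone Egr1 went from place 3 to place 6, with 370.1 ± 154 per kilobase (SD, n = 2), and Fos from place 6 to place 9, with 54.8 ± 32.6. There Fosl2 overlapped Jun, Atf3 overlapped Fosl1, and Fos overlapped Fosb. Under the combination Fos came last, with 36.5 ± 11.2 per kilobase (SD, n = 2), below Fosb with 185 ± 10.1, and the replicates of these genes did not overlap.

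The make-up of both families is given as shares of their summed counts per kilobase. In DMSO, Fos held 52.5% ± 7.04 (SD, n = 2) of the Fos family's counts per kilobase and Fosl2 41.1% ± 6.47 (SD, n = 2). With TGF-β the share of Fos was 4.75% ± 2.36 (SD, n = 2) and that of Fosl2 76.5% ± 3.68 (SD, n = 2). Under the combination they were 2.2% ± 0.785 and 81.7% ± 2.84 (SD, n = 2). Fosb held 1.04% ± 0.0866 in DMSO, 3.89% ± 0.766 with TGF-β and 11% ± 0.0086 with TGF-β+2APB (SD, n = 2). Fosl1 held its largest share, 14.9% ± 2.09 (SD, n = 2), with TGF-β. The summed level of the Fos family per kilobase was 1736 ± 344 in DMSO, 1120.4 ± 130.4 with TGF-β and 1679 ± 90.3 with TGF-β+2APB (SD, n = 2), so the family total with 2APB lay between the DMSO replicates, at 1979 and 1493. Within the Jun family, Junb held 57.1% ± 0.976 of the counts per kilobase in DMSO, 76.6% ± 1.04 with TGF-β and 77.7% ± 1.38 with TGF-β+2APB (SD, n = 2), and Jund 37.7% ± 0.945, 20.3% ± 1.19 and 18.6% ± 1.54. Jun held 3.15% to 5.19% on average in each group. The Jun family total per kilobase was 20663 ± 2046, 26687 ± 2318 and 34613 ± 383 (SD, n = 2), above that of the Fos family in every library. These shares were not tested. The lengths are of all GENCODE M21 exons of a gene joined, 6243 bases in 2 blocks for Fosb, and can exceed that of a single transcript. Where they do, the level per kilobase comes out too low, and ranks and shares shift with it. The annotation the authors counted on is not given in the sources used here.

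**Figure D3:**
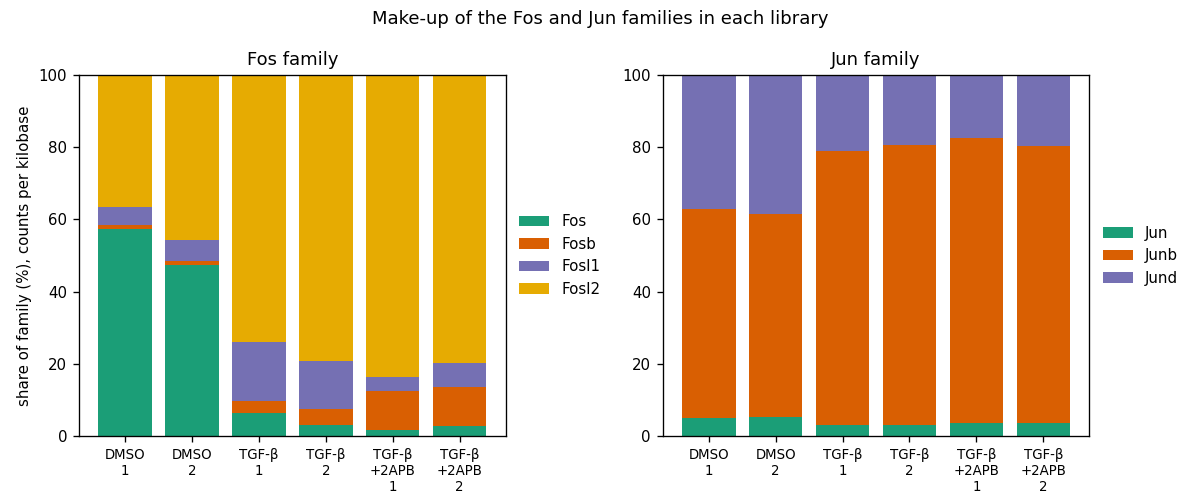
Share of each member (vertical axis, percent of the family's counts per kilobase of exon) in the Fos family and the Jun family in each of the 6 libraries. Fos makes up 47.5% to 57.4% of its family in DMSO and at most 6.42% in the treated libraries, and Junb at least 75.8% of its family in the treated libraries.

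Atf3, a stress-induced factor that mostly represses as a homodimer, was lowered by TGF-β. Atf3 spans chromosome 1 from 191170296 to 191218039 (minus strand). It had 1928 and 1771 normalized counts in DMSO cells, 501 and 324 after TGF-β alone, and 475 and 803 after TGF-β with 2APB. The treated groups overlapped each other and lay below DMSO. The log2 fold change was -2.16 with TGF-β (SE 0.31, 4.48-fold lower, edgeR FDR 0.00351) and -1.53 under the combination (SE 0.31, 2.89-fold lower, edgeR FDR 0.00807). Between the treatments the change was 0.63 (95% interval -0.13 to 1.39, edgeR FDR 0.213), and the replicates with 2APB differed more from each other than their mean did from that of TGF-β.

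Maff, a small Maf protein that has no transactivation domain of its own, had the narrowest range of the 10 over the libraries and was not called in any comparison. The gene is on chromosome 15 from 79346621 to 79359076 (plus strand). Counts of Maff, normalized, were 4939 and 4570.0 in DMSO, 4303 and 3710.4 in TGF-β-treated cells, and 4219 and 4106 in those with 2APB as well. The DMSO replicates were the highest. The log2 fold change was -0.25 with TGF-β (95% interval -0.48 to -0.01, edgeR FDR 0.089), -0.19 for the combination against DMSO (95% interval -0.43 to 0.04, edgeR FDR 0.145) and 0.05 between the treatments (95% interval -0.18 to 0.29, edgeR FDR 0.725), and the last was -0.048 without replicate 2 of TGF-β. Without replicate 1 of TGF-β the first of these was -0.35 (edgeR FDR 0.0105). The second was -0.18 (edgeR FDR 0.0317) without replicate 1 of TGF-β and -0.19 (edgeR FDR 0.0257) without replicate 2 of TGF-β, and scaling by library size alone called both.

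Egr1, which reads GC-rich promoter sites after growth factor signals and induces its own corepressor Nab2, fell in both treatments. The gene lies at chromosome 18 from 34859823 to 34864984 (plus strand). DMSO cells held 13381 and 9376 normalized counts of Egr1, TGF-β-treated cells 2147 and 1172, and cells with both agents 915 and 889.8. The 3 groups did not overlap and each was below the one before. The log2 fold change was -2.78 with TGF-β (SE 0.32, 6.85-fold lower, edgeR FDR 0.00163) and -3.66 for the combination against DMSO (SE 0.34, 12.6-fold lower, edgeR FDR 0.00045). The further step of -0.88 on addition of 2APB (95% interval -1.65 to -0.11, edgeR FDR 0.113) was not called by edgeR, while DESeq2 called it (FDR 0.0215) and so did the fit without replicate 2 of TGF-β (-1.25, edgeR FDR 0.0116, range over the alternatives 0.0116 to 0.282). No member was called lower by edgeR in that comparison. At an unadjusted p under 0.05, 2 members were lower there by edgeR, Fosl1 and Egr1, and DESeq2 called both lower after adjustment.

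The falls of Fos, Atf3 and Egr1 went with the drop of the hepatocyte markers given above, whose part in them was not tested. In mean-centred log2 CPM over the 6 libraries, the 3 genes nearest to Egr1 by root mean square difference were C2, Enpp5 and Afp (0.22 to 0.23), of which Afp encodes alpha-fetoprotein. Nearest to Fos were Ugt2b38, Mettl7b and C4b (0.26 to 0.28), and nearest to Atf3 were Card14, Cox7a1 and Uap1l1 (0.22 to 0.23). Egr1, Fos and Atf3 themselves ranged over 3.91, 5.27 and 2.57 on that scale. Nearest to Fosb were Bend6, Ctse and Gadd45a (0.20 each, against a range of 3.69). Their order, lowest in DMSO and highest with TGF-β+2APB, follows from choosing them by profile. For Junb they were Cotl1, Mkl1 and Tsc22d1 (0.05 to 0.07), for Fosl2 Snap47, Angel1 and Pxmp2 (0.03 to 0.04), for Jun Creb3l2, Aprt and Tmem144 (0.07 to 0.08), and for Jund Bri3, Ninj1 and Atp6v1f (0.03 to 0.04). These small ranges have many close neighbours, with 369 to 1412 genes within 0.2 of Fosl2, Jun, Junb and Jund and 0 within 0.2 of Fos, Atf3 and Egr1.

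Other bZIP genes of the AP-1 and Maf type were looked at in the same way. This list and those that follow were chosen with earlier results of these data known, so their shares are descriptions and not tests. Of 12 listed genes, 9 were tested, and under TGF-β 3 were lower and 0 higher by edgeR (at an unadjusted p under 0.05 also 0 higher), which is 33.3% of the list against 41.5% of all tested genes, with a median log2 fold change of -0.30 against -0.01. They were Jdp2, Maf and Mafk. Maf, a large Maf factor, had 4686 and 4680 normalized counts in DMSO cells, 1862 and 2521 under TGF-β alone and 3728 and 3338 under the combination. Its log2 fold change under TGF-β was -1.10 (SE 0.15, edgeR FDR 0.003), and 2APB raised it by 0.69 (SE 0.15, edgeR FDR 0.0324). The small Maf gene Mafk moved the same way, by -0.55 (SE 0.09, edgeR FDR 0.00601) and 0.39 (SE 0.09, edgeR FDR 0.0412), and these were the 2 genes of the list, or 22.2%, called in the direct comparison, near the 17.5% of all tested genes. In that comparison Creb5 had -0.50 (SE 0.16, edgeR FDR 0.0839), the opposite sign. Creb5 alone was called for the combination against DMSO, with -0.80 (SE 0.16, edgeR FDR 0.0076). That is 11.1% of the list, against 52.8% of all tested genes.

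Of 18 further immediate-early genes 16 were tested, and calls in both directions were found among them as well. With TGF-β 4 rose (Ier3, Ier5, Arc and Rhob) and 7 fell (Egr3, Nr4a1, Btg2, Zfp36, Sik1, Nab1 and Nab2), which is 68.8% of the list against 41.5% of all tested genes, with a median log2 fold change of -0.43 against -0.01. Zfp36, which encodes a protein that promotes the decay of AU-rich transcripts, had 16058 and 12502 normalized counts in DMSO cells, 2817 and 1905 under TGF-β alone and 1103 and 2066 under the combination. Its log2 fold change against DMSO was -2.60 under TGF-β (SE 0.35, edgeR FDR 0.00288) and -3.17 under the combination (SE 0.36, edgeR FDR 0.000989). Arc, best known from neurons, went from 1.97 and 10.3 normalized counts in DMSO cells to 169 and 141 under TGF-β alone and 905 and 746 under the combination, and its rise on addition of 2APB was 2.41 (SE 0.39, edgeR FDR 0.0147). Egr3, a relative of Egr1, had a log2 fold change of -2.36 under TGF-β (SE 0.29, edgeR FDR 0.002) and of 1.25 when 2APB was added (SE 0.29, edgeR FDR 0.0371), the latter from 39.0 and 33.2 to 71.3 and 101 normalized counts. In the direct comparison 3 genes of the list were higher (Egr3, Ier5 and Arc) and 1 was lower, 25% of the list against 17.5%. The latter was Nab2, named after its value was seen, a corepressor of the EGR factors, which had 3801 and 3624 normalized counts in DMSO cells, 2293 and 1828 under TGF-β alone and 1030 and 1300.2 under the combination (log2 fold change between the treatments -0.82, SE 0.16, edgeR FDR 0.0214). Against DMSO the combination had 5 genes of the list higher and 6 lower, or 68.8% of it against 52.8% of all tested genes.

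All 17 listed upstream factors and kinases were tested. Under TGF-β 5 of them were higher and 2 lower, a share of 41.2% that is close to the 41.5% of all tested genes, with a median log2 fold change of 0.08 against -0.01. On addition of 2APB 1 was called, or 5.88% against 17.5%. These counts are no result about the list, and the genes below are given for their own values. Elk3, a ternary complex factor that acts with serum response factor, rose with TGF-β from 7078 and 7272 to 14981 and 14404 normalized counts (log2 fold change 1.03, SE 0.08, edgeR FDR 0.000365). Mkl1, the actin-regulated coactivator of serum response factor, rose by 0.87 under TGF-β (SE 0.10, edgeR FDR 0.00174) and stood 1.22 above DMSO under the combination (SE 0.10, edgeR FDR 0.000329). Map2k2, which encodes the ERK kinase MEK2, was the gene called on addition of 2APB, with 0.46 (SE 0.09, edgeR FDR 0.0248). Against DMSO the combination had 8 of the list higher and 3 lower, 64.7% against 52.8%.

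Most of the genes known as AP-1 targets rose under TGF-β. Of 14 listed, 13 were tested, 9 were higher and 1 lower, which is 76.9% against 41.5% of all tested genes, and the median log2 fold change was 1.23, also with Il6 at its lower bound. This list was chosen with earlier results of these data known, so its shares and medians here describe the listed genes and are no test of AP-1 activity. Mmp9, which encodes a gelatinase, rose from 27.5 and 20.7 normalized counts in DMSO to 3300 and 3275 after TGF-β (log2 7.08, SE 0.26, edgeR FDR 5.2e-05) and fell to 1340.3 and 937 on addition of 2APB (-1.53, SE 0.19, edgeR FDR 0.0072). Il6 had no count in DMSO and was at least 10.6-fold higher under TGF-β and at least 17-fold higher under the combination, against a floor of 3 counts per library. On addition of 2APB 2 targets were higher, Plau and Plaur, and 6 lower, among them Spp1, which encodes osteopontin and went from 599437 and 625108 normalized counts with TGF-β to 112362 and 154765 (log2 fold change -2.20, SE 0.15, edgeR FDR 0.00307). The 8 called are 61.5% of the list, against 17.5%. The median of the list in that comparison was -0.30, against -0.00367 for all tested genes, while the members' median was 0.32. Against DMSO 9 targets were higher under the combination and 3 lower, with a median of 0.71 against -0.00326 for all tested genes. The 12 called are 92.3% of the list, in a comparison that called 52.8% of all tested genes.

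**Figure D4:**
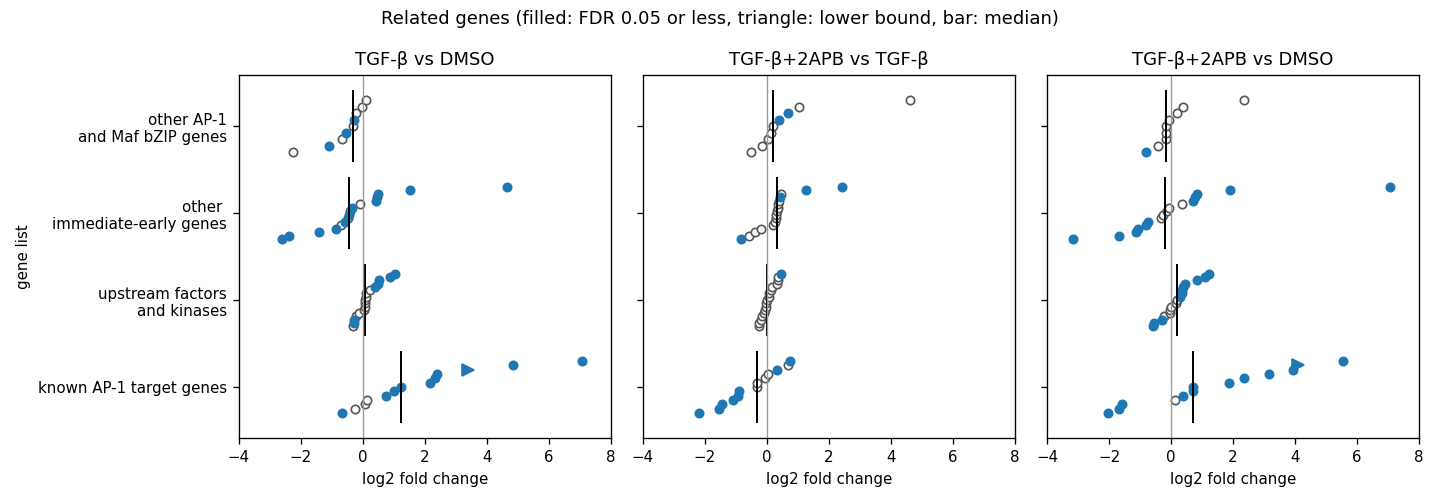
Log2 fold changes (horizontal axis) of the tested genes of 4 related lists in the 3 comparisons, 1 point a gene, filled where the FDR is 0.05 or less, with the median of each list as a bar and Il6 as a triangle at its lower bound against DMSO. The medians of the AP-1 target genes are 1.23, -0.30 and 0.71 in the order of the panels.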

How the data were processed

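RNA of 6 libraries in 3 groups of 2 was analysed. The authors sequenced single-end reads from oligo-dT selected RNA, checked them with FastQC 0.11.2, aligned them with TopHat2 2.0.13 and counted them per gene with featureCounts, and the deposited values are raw counts. The methods name a human build and the submitters' processing notes name mm10, and the symbols are mouse symbols. Strand setting, annotation and handling of multiply aligned reads are not given in the sources used here. Of the entries, 25 had names turned into dates and stayed in the fits unnamed.

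In R 4.3.3 with edgeR 4.0.16, counts were TMM-scaled, entries averaging 20 or more normalized counts were retained, all groups entered 1 quasi-likelihood model with no covariate, and each pair was compared by F-test with Benjamini-Hochberg adjustment at an FDR of 0.05. The SE was taken as log2 fold change over root F, and intervals are 95%. The biological coefficient of variation was 17.4%. The alternatives were DESeq2 1.42.0 with and without its fold change prior, RLE or library size scaling, no filter, a minimum of 10 counts per library, a replicate block, only the 4 libraries compared, stricter thresholds, halved counts, and each library left out in turn, where the lone library is assumed to vary like the other groups. A block with exchanged TGF-β+2APB numbers was added after seeing the data. The procedure was tested on simulated data. The floor for Il6 covers counting error only.

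The members and lists were chosen with earlier results of these data known. Named genes were the 10 members, in each list at most the 2 called genes with the largest change in each comparison, the 3 genes nearest to each called member by profile, and the marker lists. The other genes that a count of a list names in brackets or in a clause were added after their values were seen. Positions and lengths came from GENCODE M21 (GRCm38).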

Additional observations from a re-analysis of the deposited data

How the results depend on the processing

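With TGF-β against DMSO the number of members called, 7, was 5 to 9 in the alternatives at the same threshold, and 4 under the added demand of a doubling or halving (log2 of 1 or more). Between the treatments the number, 3, was 6 with either DESeq2 setting, 5 with the replicate block in which the TGF-β+2APB numbers were exchanged, 1 at an FDR of 0.01, 1 under the demand for a log2 of 1 or more, and 1 to 5 with each library left out in turn. It was lowest without replicate 1 of TGF-β+2APB, where Fosb alone was called, and highest without either replicate of TGF-β. For the combination against DMSO the number, 6, was 6 to 9 in the alternatives at that threshold. The shares of all tested genes given above are those of the main fit, and the counts of the alternatives have none beside them.

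The replicate block gave 8, 4 and 7 members in the 3 comparisons in that order. The replicate numbers are shared names without a stated link. Across genes, which are not independent, the replicate 1 minus replicate 2 differences of DMSO had a Pearson r of 0.156 with those of TGF-β and of -0.48 with those of the combination, and the latter had one of -0.247 with those of TGF-β.

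No called change turned its direction in any alternative. Of the changes not called, 3 did with 1 library left out. The change of Fos between the treatments ran from -1.09 to 0.20, that of Maff from -0.048 to 0.17, and that of Fosl1 with TGF-β+2APB against DMSO from -0.53 to 0.19. The calls of Fos, Fosb, Junb, Atf3 and Egr1 against DMSO were kept in all 16 alternatives. So were those of Fosl2 for the combination against DMSO and of Fosb between the treatments. Raw counts in place of counts per kilobase gave Fos 23.1% and Fosl2 73.6% of the Fos family in DMSO, since Fosl2 has the longer exons. The lowest deposited count of a member in a library was 68, for Fos, so counting error weighed most there.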

Other observations

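The replicates of a group differed in the early-response genes. In DMSO all 10 members were higher in replicate 1 than in replicate 2, with a median log2 difference of 0.17, where 56.6% of all tested genes were higher in replicate 1 and the median was 0.02. The differences ran from 0.08 to 0.68, and the largest ratios were 1.60 for Fos, 1.49 for Fosb and 1.43 for Egr1. Of the 16 further immediate-early genes tested, 13 were higher in replicate 1, with a median of 0.11. With TGF-β 9 of the 10 members were higher in replicate 1, with a median of 0.26 against 0.08 for all tested genes, of which 59.5% were higher, and the ratios were 2.45 for Fos and 1.83 for Egr1. With TGF-β+2APB 6 of 10 were higher in replicate 1, with a median of 0.04, and 50.7% of all tested genes were. The members share libraries and are not independent of each other, and what set these replicates apart was not tested.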
